A study of Mus musculus with 11 samples.

Results

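ATP-binding cassette (ABC) transporters are membrane proteins that use ATP hydrolysis to move lipids, vitamins, peptides, conjugates and drugs across membranes. The genes described here were chosen by symbol, as those named Abca to Abcg with a number, and 35 of 50 such genes among 22196 genes had 10 or more estimated reads in at least 5 of the 11 libraries. The families are lettered by sequence similarity and differ in what they carry. Members of subfamily A move lipids, subfamily C holds conjugate pumps and regulators of potassium channels, subfamily D serves peroxisomes and lysosomes, and the members of subfamilies E and F do not transport anything but act at the ribosome. In the mammary gland the family is best known for Abcg2, the breast cancer resistance protein, which sits in the apical membrane of the milk-secreting epithelium and passes riboflavin, urate and many drugs into milk.

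RNA came from the inguinal mammary gland of mice that were killed 16 days after delivery. All mice were fed normal chow, carried the age label PND16.5 and were homozygous for a floxed Tsc1 allele, which the recombinase Cre can delete. The Knockout group (Tsc1-fl/fl; Adipoq-Cre-Tg/+, n = 6) also carried Cre under the control of the adiponectin gene, which is active in fat cells, and the Wild-Type group (Tsc1-fl/fl; Adipoq-Cre-+/+, n = 5) lacked it. The labels do not state outright that the mice were lactating and name no litter, batch or date, so the p-values measure only the spread between these samples. Tsc1 encodes a restraint on the growth-regulating kinase complex mTORC1. The comparison asks how loss of Tsc1 in fat cells bears on the gland.

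Each library held from 25817975 to 37894237 estimated reads. Genes of the milk protein list took 51.0% to 63.3% of the reads of a library, with 56.6% ± 3.35 (SD, n = 6) in the Knockout and 59.7% ± 2.59 (SD, n = 5) in the Wild-Type group. These means did not differ beyond the spread between libraries (exact two-sided permutation test, p = 0.121, smallest possible 0.00216). Tsc1 itself lay between 8.31 and 11.9 CPM (read counts scaled by library, with the TMM correction for composition) in the Knockout libraries, with a median of 10.1. It was at 12.2, 9.77, 10.7, 11.5 and 9.55 CPM in Wild-Type libraries 1 to 5, so the groups overlapped (log2 difference -0.09 ± 0.11 SE, edgeR adjusted p = 0.772). The value neither checks the deletion nor speaks against it, because the whole gland was sequenced and reads were summed over the whole gene. The TMM factor, which corrects for composition, averaged 1.07 ± 0.0975 in the Knockout and 0.934 ± 0.0952 in the Wild-Type libraries (exact two-sided permutation test, p = 0.0498).

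The upstream sequences of Abca1 and Abcg2 are printed because Abca1 showed the largest difference between genotypes in the family and Abcg2 the highest level. Each run holds the 250 bases before the RefSeq start of the gene, read 5′ to 3′ on the strand of the gene, in build GRCm38.p6. Abca1 lies on the minus strand and its window is chr4:53159896-53160145. Abcg2 lies on the plus strand, and of its 3 listed windows the window nearest the annotated start of its most-read transcript is shown, chr6:58596422-58596671. Capitals mark the direct repeat in Abca1 and the GC boxes in Abcg2.

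Abca1: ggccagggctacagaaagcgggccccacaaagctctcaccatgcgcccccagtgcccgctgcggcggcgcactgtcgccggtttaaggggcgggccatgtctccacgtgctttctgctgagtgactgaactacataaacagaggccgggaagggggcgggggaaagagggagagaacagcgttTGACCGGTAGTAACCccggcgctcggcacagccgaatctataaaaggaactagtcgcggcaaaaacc
Abcg2: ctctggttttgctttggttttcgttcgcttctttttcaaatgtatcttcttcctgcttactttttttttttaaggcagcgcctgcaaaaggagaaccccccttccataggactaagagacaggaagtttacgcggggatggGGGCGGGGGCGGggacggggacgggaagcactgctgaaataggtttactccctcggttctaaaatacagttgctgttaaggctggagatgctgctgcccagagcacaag

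The direct repeat (GGTNANNNNNGGTCA, searched on both strands) has the form bound by the sterol sensor LXR with its partner RXR, and the capitals show it on the opposite strand. It begins 67 bases before the Abca1 start and ends 53 bases before it. It was found in 58 of 32851 upstream windows (0.177%) and, among the 26 kept ABC genes with a window, in Abca1 only. The E-box CACGTG, which did not overlap it, lay 147 to 142 bases upstream in Abca1, and was also found in Abca8a, Abcc4 and Abcf1 (6.02% of all windows). The GC box GGGCGG, a common element of promoters bound by Sp factors, was present in 32.7% of all windows and in at least 1 window of 16 of the 26 members. A gene can have several windows, so for each motif the count of members and the share of windows are in unlike units. They cannot be compared. In the Abcg2 window shown, GC boxes stood at 109 to 104 and at 103 to 98 bases upstream, side by side. The palindrome TTCNNNGAA of the type bound by STAT5, the mediator of prolactin signals, was found in 7.02% of all windows and, among the members, in that of Abcc5. These matches describe letters in the window. Whether a factor binds there was not measured, and the motifs were chosen with the results known.

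Abcg2 was by far the most abundant transcript of the family. Levels between genes are compared in TPM, a scale per length that gives every library the same total. Summed over its transcripts, Abcg2 reached 161 ± 28.3 TPM (SD, n = 6) in the Knockout and 155 ± 7.83 TPM (SD, n = 5) in the Wild-Type group, with a range of 122 to 194 TPM over the libraries. Of these means, 18.8 and 16.1 TPM came from a transcript of 152 bases that held 0.03% of the Abcg2 reads. The longest transcript alone averaged 139.9 TPM in the Knockout and 137.6 TPM in the Wild-Type group, and still ranked 1 in the family. The values that follow use the sum over transcripts. This sum made up 62.3% to 72.8% of the summed TPM of the 50 listed ABC genes. It was 10.1 to 17.7 times as high as that of Abcf1, the second member by mean TPM. Among all genes of a library, Abcg2 ranked between 185 and 281 by TPM. The summed TPM of the family was 244 ± 33.6 (SD, n = 6) in the Knockout and 225 ± 10.4 (SD, n = 5) in the Wild-Type group.

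The next 6 members included all 4 of the ribosome-associated ATPases. Abcf1, an ATPase that promotes translation initiation, averaged 12.1 TPM over the 11 libraries, ahead of Abcd3 of the peroxisome membrane at 9.82 TPM. Abca3, the phospholipid transporter of the lamellar bodies of the lung, averaged 8.46 TPM. Abcf2 and Abcf3 followed at 8.05 and 7.66 TPM, and Abce1, which splits ribosomes for recycling, at 6.61 TPM. Within the libraries, Abcf1 was above Abcd3 in 10 of 11 and above Abca3, Abcf2, Abcf3 and Abce1 in 11 of 11. Abca3 was above Abcf2 and above Abcf3 in 7 of 11 libraries each, and so was Abcf2 above Abcf3, so the order of these 3 varied. Subfamilies E and F together held 12.2% to 17.6% of the summed family TPM, and subfamily A 3.75% to 6.89%.

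Between 1 and 5 TPM on average lay, among others, Abcb8, Abcd4, Abcb6, Abcb9, Abcc10, Abca7 and Abca2, from 4.07 TPM for Abcb8 to 1.09 TPM for Abca2. Below 1 TPM were 19 kept members, from Abcb10 at 0.871 TPM down to Abca4 at 0.0439 and Abca6 at 0.0376 TPM. The P-glycoprotein genes Abcb1a and Abcb1b averaged 0.193 and 0.382 TPM, and the conjugate pumps Abcc1, Abcc3, Abcc4 and Abcc5 averaged 0.237, 0.205, 0.136 and 0.515 TPM. The sterol exporters Abca1 and Abcg1, with 0.259 and 0.509 TPM, were also below 1 TPM. The sums of Abcb1b and Abcg1, like that of Abcg2, include short transcripts, which reach a high TPM with few reads. On the longest listed transcript alone, Abcb1b averaged 0.172 TPM, which is below the level of Abcb1a. On the same basis Abcg1 averaged 0.3155 TPM. The longest transcript of Abcb1b held 96.8% of its reads and that of Abcg1 94.97%. For other members the longest transcript alone leaves out many reads, so the order of these levels depends on the transcripts counted. The longest transcript of Abcc10 held 11.82% of its reads and averaged 0.162 TPM, and those of Abca4 and Abca8a averaged 0.0113 and 0.00495 TPM, below Abca6.

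**Figure D1:**
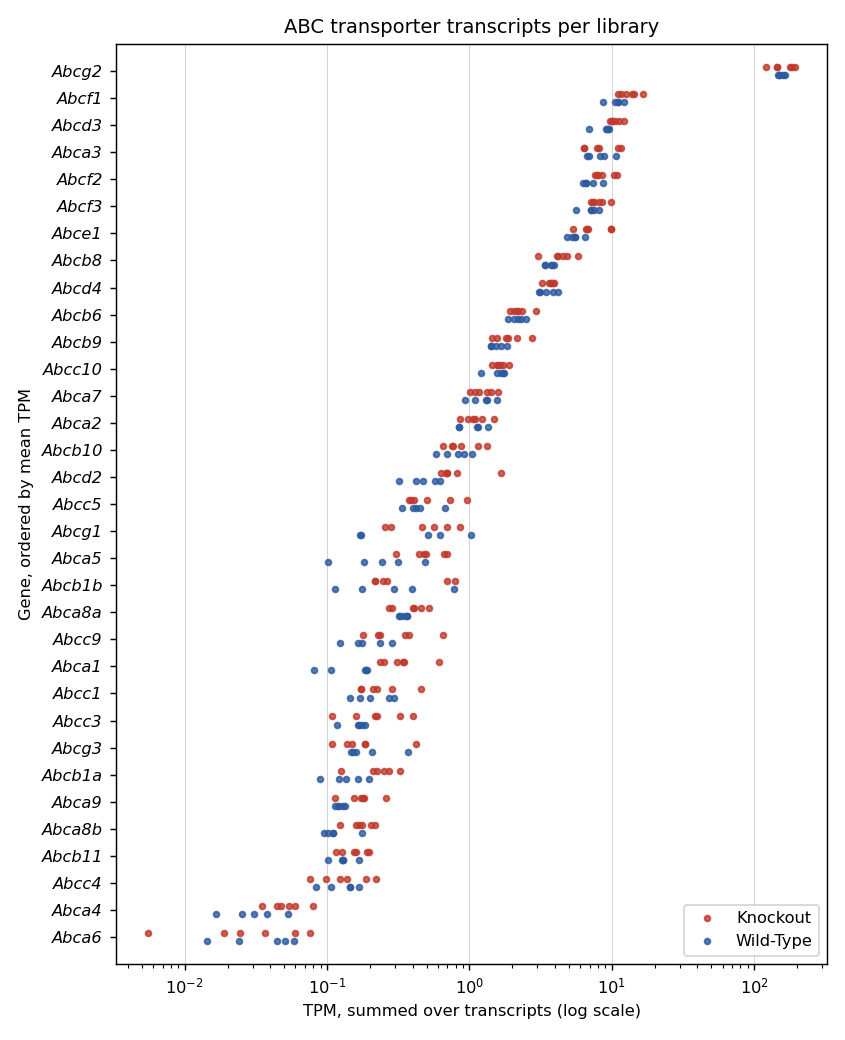
Level of 33 of the 35 kept ABC genes in each library, in TPM on a log axis, with red points for the 6 Knockout and blue points for the 5 Wild-Type libraries. Abcg2 stands apart at 122 to 194 TPM, and the other members lie at or below about the level of Abcf1, which averaged 12.1 TPM.

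The 15 members that did not reach the reads rule include the sterol pair Abcg5 and Abcg8, the bilirubin conjugate pump Abcc2, the sulphonylurea receptor Abcc8 of the pancreas and the skin lipid transporter Abca12. These and 8 others (Abca13, Abca14, Abca15, Abca16, Abca17, Abcb5, Abcc6 and Abcc12) had at most 5 reads in every library, which is 13 genes in all. Abcg4, a sterol exporter of the brain, had 4 to 13 reads. It was also tested, with a log2 difference of 0.07 ± 0.38 SE (edgeR adjusted p = 0.955). Abcb4, which exports phosphatidylcholine into bile, had 109 reads in Knockout library 1 and at most 12 in each of the others. No kept member owed its place to only 1 of the genotypes, and 33 of the 35 had 10 or more reads in all 11 libraries, the exceptions being Abca4 with 10 and Abca6 with 8 such libraries.

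None of the 35 members passed the test between genotypes. At an edgeR adjusted p below 0.05 there were 0 members, against 7 of 12716 genes tested (0.055%). At an unadjusted p below 0.05, edgeR gave 6 members, of which Abca1, Abcd2, Abca5 and Abcb1a (4 of 35) were higher in the Knockout libraries, as were 6.31% of all genes tested, and Abcd4 and Abcc10 (2 of 35) were lower, as were 6.08% of all genes. DESeq2, whose test called 146 genes, called 1 member, Abca1. In all, 17 members had a higher and 18 a lower fitted value in the Knockout group, with a median log2 difference of -0.04 beside -0.01 for all genes tested. This split depended on the scaling: 21 members were higher with library sizes that leave out milk proteins, which moved the median of all genes to 0.08, and 33 were higher with limma on log2(TPM + 0.1), which moved it to 0.21. The differences ran from -0.33 for Abca6 to 0.95 for Abca1, and 24 of the 35 lay within 0.25 of 0. The CPM ranges of the genotypes overlapped in all 35 members, so 0 were separated, where 1.32% of all genes tested were. The count at an unadjusted p below 0.05 ranged from 3, without Wild-Type library 2 or with limma on the authors' normalized values, to 9 with limma on log2(TPM + 0.1). In whole tissue, fewer cells of a type and less RNA per cell cannot be told apart.

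**Figure D2:**
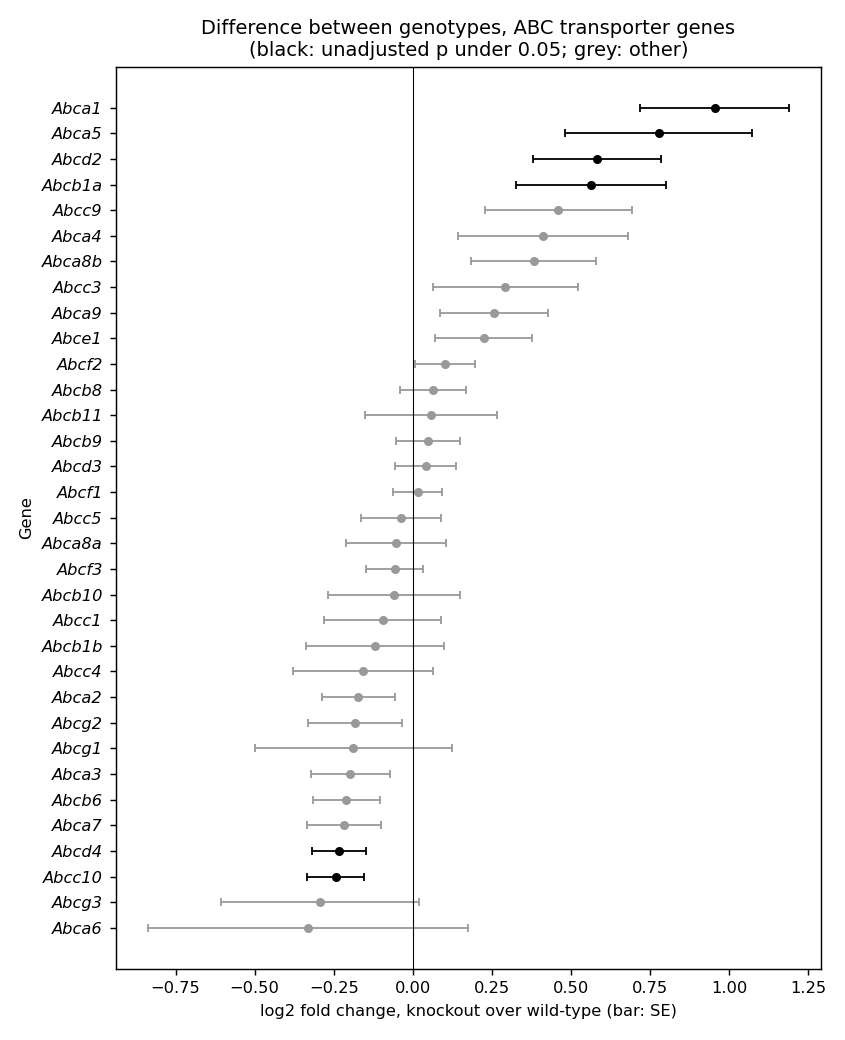
Fitted log2 fold change of 33 of the 35 kept ABC genes, Knockout over Wild-Type, with bars for the standard error of the edgeR fit. Black marks the 6 members with an unadjusted p below 0.05; Abca1 lies highest at 0.95 and Abca6 lowest at -0.33, and no member passed the adjusted threshold.

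The sterol and phospholipid exporters had fitted values of both signs, of which that of Abca1 was the largest. Abca1, which loads cholesterol and phospholipid onto apolipoprotein A-I (chr4:53030787-53159895, GRCm38), lay between 4.16 and 8.42 CPM in the 6 Knockout libraries, with a median of 6.05. In Wild-Type libraries 1 to 5, Abca1 was at 4.27, 1.71, 2.45, 3.25 and 3.69 CPM. Only Knockout library 2 was below the highest Wild-Type library, so the groups overlapped by a single pair. Mean levels were 5.96 ± 1.51 CPM (SD, n = 6) in the Knockout and 3.07 ± 1.01 CPM (SD, n = 5) in the Wild-Type group, for a log2 difference of 0.95 ± 0.24 SE with an edgeR unadjusted p of 0.00146 and adjusted p of 0.223. DESeq2 gave a log2 difference of 0.96 with an adjusted p of 0.0162. Over every fit on all libraries the adjusted p ranged from 0.0162 to 0.262, and over the edgeR fits that each leave out 1 library it ranged from 0.145 to 0.409 with log2 differences of 0.81 to 1.10.

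Abcg1, which hands sterols on to high-density lipoprotein, lay between 0.859 and 2.11 CPM in the Knockout libraries, with a median of 1.58. Abcg1 was at 1.05, 2.92, 1.07, 1.34 and 2.60 CPM in Wild-Type libraries 1 to 5. Wild-Type libraries 2 and 5 were the highest of all and libraries 1 and 3 among the lowest, so the Wild-Type range covered most of the Knockout range. The log2 difference was -0.19 ± 0.31 SE (edgeR adjusted p = 0.837), and it turned to 0.05 when Wild-Type library 2 was left out. Abca7, a relative of Abca1 that also handles phospholipid, lay between 19.8 and 26.5 CPM in the Knockout libraries, with a median of 21.8. It was at 20.8, 33.3, 25.3, 23.0 and 25.7 CPM in Wild-Type libraries 1 to 5. Wild-Type library 2 was the highest of all, the groups overlapped, and the difference of -0.22 ± 0.12 SE on the log2 scale did not pass (edgeR adjusted p = 0.469).

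Among the other lipid transporters of subfamily A, Abca5 showed the largest difference. Abca5, a lysosomal and endosomal member, lay between 3.21 and 7.77 CPM in the Knockout libraries, with a median of 5.72, and was at 1.44, 2.42, 3.58, 5.28 and 3.83 CPM in Wild-Type libraries 1 to 5. Knockout library 2 was within the Wild-Type range, and the other 5 Knockout libraries were above every Wild-Type library. Mean levels were 5.69 ± 1.46 CPM (SD, n = 6) in the Knockout and 3.31 ± 1.46 CPM (SD, n = 5) in the Wild-Type group, for a log2 difference of 0.78 ± 0.29 SE (edgeR unadjusted p = 0.0216, adjusted p = 0.341). Abca5 shares a cluster on chromosome 11 with Abca6, Abca8a, Abca8b and Abca9, whose log2 differences were -0.33, -0.05, 0.38 and 0.26 with edgeR adjusted p-values of 0.823, 0.920, 0.457 and 0.566. The fitted values of these neighbours were of both signs.

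Abca8b, the member of that cluster next in size of difference to the higher side, lay between 1.11 and 2.29 CPM in the Knockout libraries, with a median of 2.15. It was at 1.58, 1.5, 1.41, 1.82 and 1.19 CPM in Wild-Type libraries 1 to 5, so Knockout library 1 was the lowest of all and the other 5 Knockout libraries were above every Wild-Type library (log2 difference 0.38 ± 0.20 SE). Abca8a and Abca8b share 3.79% of the 31-base words of their coding sequences with each other, so a few reads could be assigned to either. Abca3 lay between 94.8 and 145 CPM in the Knockout libraries, with a median of 110.0. It was at 141, 141, 121, 140 and 99.5 CPM in Wild-Type libraries 1 to 5. The highest and the lowest library of Abca3 were both Knockout libraries, and its log2 difference was -0.20 ± 0.12 SE (edgeR adjusted p = 0.536). Abca2, a lysosomal lipid transporter of myelinating cells, ranged from 18.8 to 25.4 CPM in the Knockout group with a median of 20.9. It was at 20.9, 31.7, 21.6, 22.2 and 24.7 CPM in Wild-Type libraries 1 to 5, with Wild-Type library 2 the highest of all, as for Abca7. Abca2 had a log2 difference of -0.17 ± 0.12 SE, and the edgeR adjusted p was 0.566. Without Wild-Type library 2 the log2 differences of Abca2 and Abca7 were -0.06 and -0.11. Abca4, the retinoid transporter of the eye, was near the limit of reads, with a log2 difference of 0.41 ± 0.27 SE (edgeR adjusted p = 0.549).

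**Figure D3:**
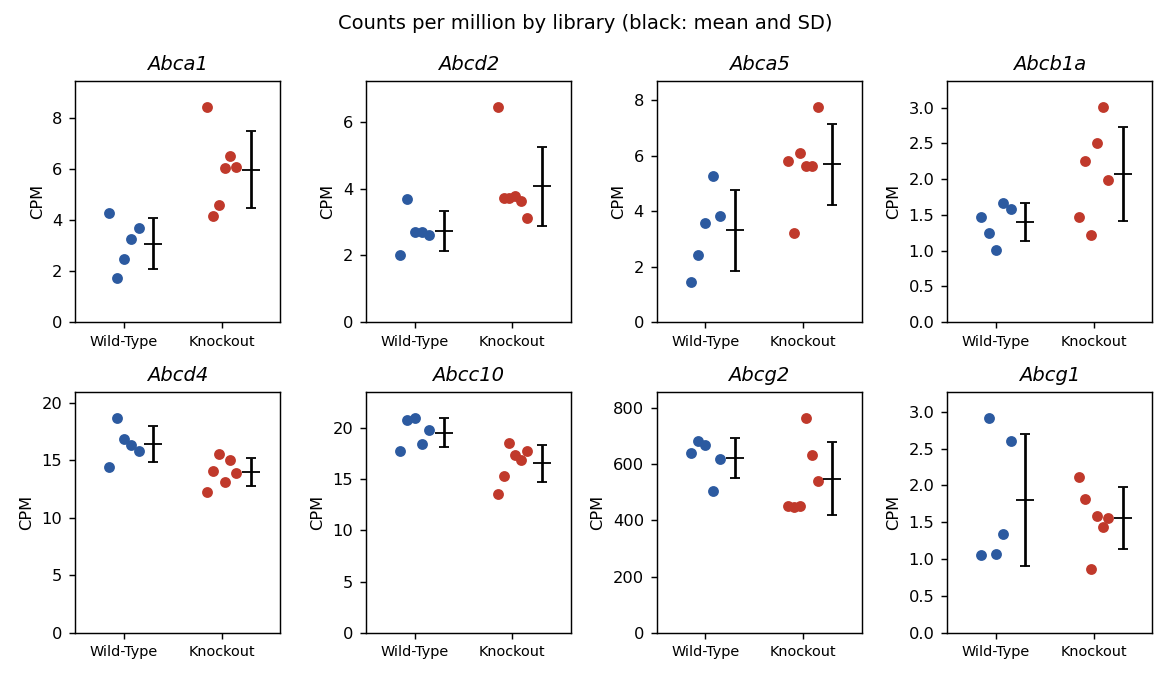
CPM of 8 ABC genes in each library, with blue points for Wild-Type and red points for Knockout libraries and black bars for the mean and SD. Abca1 shows the groups meeting at a single pair, with Knockout library 2 at 4.16 and Wild-Type library 1 at 4.27 CPM, while Abcg2 and Abcg1 show broad overlap.

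Of the exporters of drugs, conjugates and vitamins, the dominant member Abcg2 (chr6:58584523-58695676, GRCm38) did not separate the genotypes. Abcg2 lay between 449 and 766 CPM in the Knockout libraries, with a median of 496, and was at 639, 681, 668, 505 and 620 CPM in Wild-Type libraries 1 to 5. Knockout libraries 1, 2 and 3 were below every Wild-Type library, while Knockout library 4 was the highest of all. Mean levels were 549 ± 129 CPM (SD, n = 6) in the Knockout and 623 ± 69.8 CPM (SD, n = 5) in the Wild-Type group, for a log2 difference of -0.18 ± 0.15 SE (edgeR adjusted p = 0.637), and without Knockout library 4 it was -0.30. On log2(TPM + 0.1), with limma, the difference was 0.04. The median of the members was 0.19 on that scale, so relative to all genes, whose median was 0.21, Abcg2 was again lower. The most-read Abcg2 transcript carried 99.31% of its reads.

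Abcb1a and Abcb1b encode P-glycoprotein, the drug pump of the blood-brain barrier and the gut. Abcb1a lay between 1.22 and 3.01 CPM in the Knockout libraries, with a median of 2.12, and was at 1.47, 1.25, 1.01, 1.67 and 1.58 CPM in Wild-Type libraries 1 to 5. Knockout libraries 1 and 3 were within the Wild-Type range and the other Knockout libraries above it. The log2 difference was 0.56 ± 0.24 SE (edgeR unadjusted p = 0.0332, adjusted p = 0.369), beside -0.12 ± 0.22 SE for Abcb1b (edgeR adjusted p = 0.857). Of the 31-base words of Abcb1a, 28.0% also occur in Abcb1b, so the division of reads between them is uncertain.

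Abcc10, a broad conjugate and drug pump, lay between 13.5 and 18.5 CPM in the Knockout libraries, with a median of 17.1. It was at 17.7, 20.8, 21.0, 18.4 and 19.8 CPM in Wild-Type libraries 1 to 5. Knockout libraries 3 and 6 reached the Wild-Type range and the other Knockout libraries were below it. Mean levels were 16.52 ± 1.85 CPM (SD, n = 6) in the Knockout and 19.55 ± 1.49 CPM (SD, n = 5) in the Wild-Type group, for a log2 difference of -0.24 ± 0.09 SE (edgeR unadjusted p = 0.0182, adjusted p = 0.333). With limma on log2(TPM + 0.1) the difference of Abcc10 was 0.06, where the median of all genes was 0.21. Abcc10 overlaps Dlk2, a protein-coding gene on the opposite strand. Of the other conjugate pumps, Abcc1, Abcc4 and Abcc5 had log2 differences of -0.10, -0.16 and -0.04, and Abcc3 one of 0.29, with edgeR adjusted p-values of 0.865, 0.808, 0.930 and 0.623. The log2 difference of Abcg3, a rodent relative of Abcg2, was -0.29 ± 0.31 SE (edgeR adjusted p = 0.735), which left all 3 kept members of subfamily G with fitted values below 0, where those of Abcg2 and Abcg1 were above 0 with limma on log2(TPM + 0.1). The bile salt pump Abcb11 stood at 0.06 and the lysosomal peptide transporter Abcb9 at 0.05 on the same log2 scale, with edgeR adjusted p-values of 0.935 and 0.881.

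The sulphonylurea receptor Abcc9 is the regulatory subunit of potassium channels of muscle and vessel walls. Abcc9 lay between 2.13 and 5.35 CPM in the Knockout libraries, with a median of 3.51, and was at 1.86, 2.38, 2.70, 3.34 and 3.16 CPM in Wild-Type libraries 1 to 5. Knockout libraries 1, 2 and 5 were above every Wild-Type library, and the others overlapped. The log2 difference was 0.46 ± 0.23 SE (edgeR adjusted p = 0.444). Its pore partner Kcnj8 had a log2 difference of -0.06 ± 0.18 SE (edgeR adjusted p = 0.929), and Kcnj11 was not tested for lack of reads.

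Of the 4 peroxisomal and lysosomal members, 2 had higher and 2 lower fitted values. Abcd2, which brings very long chain fatty acids into peroxisomes and is prominent in fat tissue (chr15:91145871-91191799, GRCm38), lay between 3.13 and 6.46 CPM in the Knockout libraries, with a median of 3.73. In Wild-Type libraries 1 to 5, Abcd2 was at 2.00, 3.68, 2.70, 2.70 and 2.60 CPM. Wild-Type library 2 reached the lower Knockout libraries, and Knockout library 1 stood well above the rest. Mean levels were 4.08 ± 1.19 CPM (SD, n = 6) in the Knockout and 2.735 ± 0.602 CPM (SD, n = 5) in the Wild-Type group, for a log2 difference of 0.58 ± 0.20 SE (edgeR unadjusted p = 0.0129, adjusted p = 0.313).

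Abcd4, which works in the export of cobalamin from lysosomes, lay between 12.2 and 15.5 CPM in the Knockout libraries, with a median of 14.0. It was at 14.4, 18.7, 16.8, 16.3 and 15.8 CPM in Wild-Type libraries 1 to 5. Knockout libraries 3 and 5 overlapped with the lowest Wild-Type library, and the others were below all of them. Mean levels were 13.95 ± 1.21 CPM (SD, n = 6) in the Knockout and 16.4 ± 1.56 CPM (SD, n = 5) in the Wild-Type group, for a log2 difference of -0.23 ± 0.09 SE (edgeR unadjusted p = 0.0171, adjusted p = 0.325). On log2(TPM + 0.1), with limma, the difference of Abcd4 was 0.06, where the median of all genes was 0.21. The abundant Abcd3 had a log2 difference of 0.04 (edgeR adjusted p = 0.897). Abcd3 lay between 39.0 and 46.0 CPM in the Knockout libraries with a median of 43.9, and the 5 Wild-Type libraries spread from 33.5 to 49.3 CPM around them with a median of 42.4.

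The mitochondrial members serve haem and iron-sulphur metabolism. Abcb6, linked to porphyrin transport, lay between 10.7 and 14.9 CPM in the Knockout libraries, with a median of 13.4, and was at 16.0, 16.2, 18.2, 13.9 and 12.9 CPM in Wild-Type libraries 1 to 5. Wild-Type libraries 1, 2 and 3 were above every Knockout library and the others within their range (log2 difference -0.21 ± 0.11 SE, edgeR adjusted p = 0.444). Of the 31-base words of Abcb6, 90.7% also occur in Gm29253, an overlapping gene on the same strand, so its value may hold reads of both. Abcb8 and Abcb10 had log2 differences of 0.06 and -0.06, with edgeR adjusted p-values of 0.838 and 0.935.

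The ribosome-associated members did not pass the test either. Abcf1, Abcf2 and Abcf3 had log2 differences of 0.02 ± 0.08, 0.10 ± 0.10 and -0.06 ± 0.09 (SE), with edgeR adjusted p-values of 0.955, 0.696 and 0.830. Abcf1 lay between 71.8 and 90.5 CPM in the Knockout libraries and between 69.7 and 83.2 CPM in the Wild-Type libraries, with medians of 75.7 and 76.8. Abcf2 lay between 30.6 and 46.8 CPM in the Knockout libraries and between 34.1 and 36.7 CPM in the Wild-Type libraries, with medians of 37.3 and 35.6. Abcf3 lay between 32.0 and 44.3 CPM and between 35.7 and 44.0 CPM, with medians of 38.9 and 41.5. Without a library in turn, the log2 difference of Abcf2 ran from 0.04 (without Knockout library 5) to 0.16 (without Knockout library 2) and that of Abcf3 from -0.10 (without Knockout library 5) to -0.01 (without Knockout library 2). That of Abcf1 ran from -0.03 to 0.05, so its sign was not stable. With limma on log2(TPM + 0.1), Abcf3 was at 0.19, where the median of all genes was 0.21. In all 3 members the Wild-Type range overlapped with the Knockout range. Abce1 had a log2 difference of 0.22 ± 0.15 SE (edgeR adjusted p = 0.572). Abce1, Abcf1 and Abcf2 share 13.1%, 8.95% and 12.2% of their words with other annotated genes.

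Partner genes of the transporters were read from lists on their pathways, and none of their genes passed the adjusted threshold in edgeR. Of 12 tested genes of LXR and lipoprotein sterol handling, 6 had higher and 6 lower fitted values, 2 and 1 of them at an unadjusted p below 0.05, beside 6.31% and 6.08% of all genes tested. Apoe, a lipoprotein acceptor of exported sterol, averaged 347 ± 53.4 CPM (SD, n = 6) in the Knockout and 262 ± 41.9 CPM (SD, n = 5) in the Wild-Type group (log2 difference 0.40 ± 0.13 SE, edgeR adjusted p = 0.282). The lysosomal sterol carrier Npc2 had a log2 difference of -0.20 ± 0.08 SE (edgeR adjusted p = 0.360). Of 8 tested transcription factors known to control ABC genes, 7 had higher fitted values, 2 of them at an unadjusted p below 0.05, beside 6.31% of all genes tested. These were Stat5a with a log2 difference of 0.43 ± 0.19 SE and the fatty acid sensor Ppara with 0.53 ± 0.24 SE (edgeR adjusted p = 0.379 and 0.384).

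Of 14 genes of peroxisomal fatty acid oxidation, 11 had higher fitted values, with a median log2 difference of 0.04, and 1 was at an unadjusted p below 0.05, a share near the 6.31% of all genes tested. The peroxisome assembly gene Pex3 had a log2 difference of 0.15 ± 0.08 SE (edgeR adjusted p = 0.480). Of 16 genes of haem and iron-sulphur cluster synthesis, 6 had higher and 10 lower fitted values. Alas1, the first enzyme of haem synthesis, had a log2 difference of 0.33 ± 0.11 SE and the later enzyme Ppox one of -0.22 ± 0.08 SE (edgeR adjusted p = 0.286 and 0.314).

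Of 12 tested solute carriers for drugs, carnitine and vitamins, 7 had higher and 5 lower fitted values, and 1 of the lower genes was at an unadjusted p below 0.05, beside 6.08% of all genes tested. Slco2b1, the gene with the second smallest p of that list and an organic anion carrier, had a log2 difference of 0.16 ± 0.14 SE (edgeR adjusted p = 0.657). The peptide transporters Tap1 and Tap2, ABC proteins under other symbols, had log2 differences of -0.30 ± 0.22 SE and -0.06 ± 0.10 SE (edgeR adjusted p = 0.593 and 0.838). Their 7 partners in peptide loading split into 3 higher and 4 lower, led by Erap1 at 0.12 and Psmb9 at -0.42 on the log2 scale (edgeR adjusted p = 0.472 and 0.552). Of 8 genes of ribosome rescue and translation control, 3 were higher and 5 lower, led by Pelo at -0.18 and Gcn1l1 at -0.15 on the log2 scale (edgeR adjusted p = 0.501 and 0.612). These counts of higher and lower fitted values also shifted with the scaling. With limma on log2(TPM + 0.1), the genes above 0 numbered 12 of 12 for sterol handling, 8 of 8 for the transcription factors, 14 of 14 for peroxisomal oxidation, 15 of 16 for haem and iron-sulphur clusters, 10 of 12 for the solute carriers, 7 of 7 for peptide loading and 8 of 8 for ribosome rescue.

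Marker lists of the cell types of the gland were scored in the same libraries, each score being the mean of centred log2 CPM over the list. The adipocyte list had all 9 genes tested, 8 of them higher in the Knockout group, and none of its markers was at 0 in any library. Its summed level was 1180 to 1730 CPM in the Knockout and 709 to 1040 CPM in the Wild-Type libraries, and its score differed by 0.34 (exact two-sided permutation test, p = 0.039, adjusted p = 0.189). The score and the values of Abca1 and Abcd2 were related with Pearson's r of 0.56 (permutation p = 0.0757, Spearman's rho 0.55, p = 0.0881) and 0.69 (permutation p = 0.0214, rho 0.56, p = 0.0763) over 11 libraries. Without the 2 libraries farthest from the median score, a step that also narrows the range of the score, r was 0.14 and 0.35. With values centred within each genotype, over all 11 libraries, r was 0.13 and 0.47. Abca1 had relations of like size with other scores, with r of 0.63 for myoepithelium (permutation p = 0.0373, rho = 0.355, permutation p = 0.288) and -0.56 for Schwann cells (permutation p = 0.0717, rho = -0.70, permutation p = 0.0202). Without the 2 farthest libraries these were 0.13 and -0.39, and none of them passed the adjustment over all relations. The part of fat cells in the differences of Abca1 and Abcd2 was not tested.

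The myoepithelium list had 6 of 6 genes higher (score difference 0.35, exact permutation p = 0.0433, adjusted p = 0.189, summed 259 to 409 CPM in the Knockout and 203 to 380 CPM in the Wild-Type libraries). The luminal epithelium list had 6 of 7 higher (0.29, exact permutation p = 0.143) and the milk protein list 9 of 9 lower (-0.21, exact permutation p = 0.0866), of which 4 were above 0 with limma on log2(TPM + 0.1). Macrophage, endothelium, mural cell and red blood cell scores differed by -0.02, 0.04, -0.01 and -0.11 (exact permutation p = 0.900, 0.777, 0.959 and 0.647), and the fibroblast and skeletal muscle scores by 0.27 and 0.64 (exact permutation p = 0.255 and 0.749). The B cell, T cell and lymph node stroma scores differed by -2.68, -0.95 and -1.48 (exact permutation p = 0.0541, 0.240 and 0.106), with, among others, Ms4a1, Pax5, Ccl21a, Ccl19 and Cxcl13 at 0 in some libraries. The Schwann cell score, which rests on 2 of 4 genes, was the only score past the adjusted threshold (difference -0.42, exact permutation p = 0.00216, adjusted p = 0.0303). With a prior count of 0.5, or with library sizes that leave out milk proteins, its adjusted exact permutation p was 0.0606.

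Across the 11 libraries, 490 relations between a kept ABC gene and a marker score were computed, and 0 passed the adjusted threshold. The 5 with the largest absolute r are given, picked with the values known. Points share their library, its depth and its scaling. Abcg2 and the milk protein score had Pearson's r of 0.83 (permutation p = 0.00183, adjusted p = 0.202) and Spearman's rho of 0.89 (permutation p = 0.00066, adjusted p = 0.323). The relation was of like size without the 2 farthest libraries (r = 0.85) and with values centred within each genotype (r = 0.79). The luminal epithelium score, outside the 5, went against Abcg2 (r = -0.70, permutation p = 0.0193, rho = -0.71, permutation p = 0.0189, adjusted p = 0.316 for r), with r of -0.69 without the 2 farthest libraries and -0.64 within genotypes. So did the skeletal muscle score (r = -0.71, permutation p = 0.017, rho = -0.75, permutation p = 0.0113) and the adipocyte score (r = -0.61, permutation p = 0.0473). The remaining scores had a smaller absolute r with Abcg2. Knockout library 1, with 451 CPM of Abcg2, had the lowest milk protein score of -0.35, and Wild-Type library 3, with 668 CPM, the highest of 0.36.

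Abcb6 also went with the milk protein score (r = 0.86, permutation p = 0.00101, rho = 0.72, permutation p = 0.0162, adjusted p = 0.202 for r), with r of 0.61 without the 2 farthest libraries. Abcc10 went against the adipocyte score (r = -0.84, permutation p = 0.00184, rho = -0.62, permutation p = 0.0478, adjusted p = 0.202 for r), with r of -0.58 without the 2 farthest libraries and -0.72 within genotypes. Abcg1 and Abcb1b went with the macrophage score. For Abcg1, r was 0.86 (permutation p = 0.00077, rho = 0.84, permutation p = 0.00196, adjusted p = 0.202 for r) and 0.76 without the 2 farthest libraries. For Abcb1b, r was 0.81 (permutation p = 0.00212, rho = 0.82, permutation p = 0.0032, adjusted p = 0.202 for r) and 0.81 without them. Abcg1 and Abcb1b also went with the B cell score (r = 0.72 and 0.67, permutation p = 0.0142 and 0.0213). With the T cell score r was 0.70 and 0.61 (permutation p = 0.017 and 0.0486). Without the 2 libraries farthest in each score, r was 0.31 and 0.39 for B cells and 0.29 and 0.18 for T cells. The macrophage list had 8 of 8 genes tested, none at 0 in any library, and summed to 75.2 to 120 CPM in the Knockout and 89.1 to 120 CPM in the Wild-Type libraries. Leaving out Knockout library 3 let 1 relation pass, that of Abcc3 with the adipocyte score (r = 0.95, permutation p = 9e-05, adjusted p = 0.0441). Its rho did not pass (0.88, permutation p = 0.00165, adjusted p = 0.404). The same relation over all 11 libraries had r of 0.70 (permutation p = 0.0153, rho = 0.65, permutation p = 0.0376, adjusted p = 0.313 for r).

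**Figure D4:**
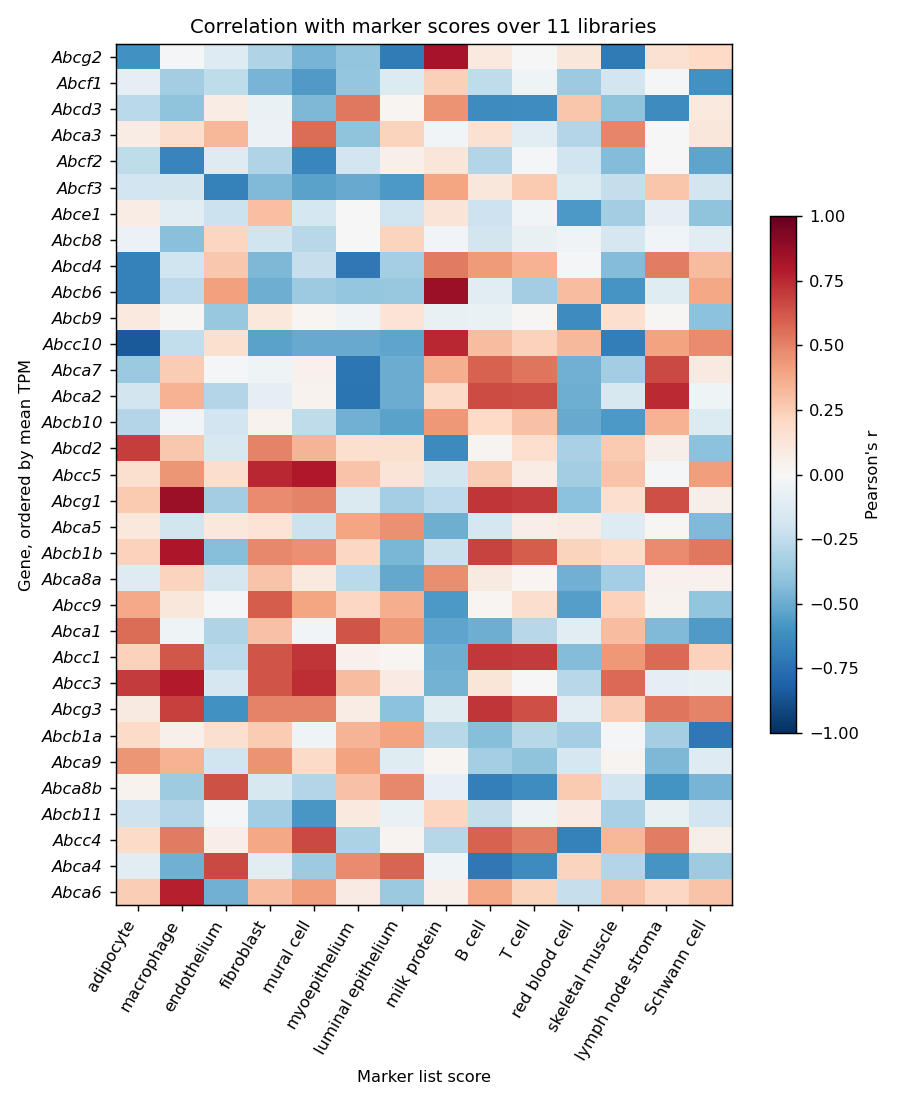
Pearson's r between 33 of the 35 kept ABC genes (rows, ordered by mean TPM) and each marker list score (columns) over the 11 libraries, from blue at -1 to red at 1. Abcg2 and Abcb6 are red in the milk protein column at 0.83 and 0.86, and Abcg1 and Abcb1b in the macrophage column at 0.86 and 0.81; none passed the adjusted threshold.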

How the data were processed

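The 11 libraries are strand-specific RNA-seq of total RNA, per the labels' protocols, and were quantified with Salmon 1.3.0, per the submitters' processing notes, which also name DESeq2 1.28.1 and GRCm38.p6. The deposited tables give estimated counts, TPM and other values, namely lengths and effective lengths, for 58204 transcripts, per the file headers. The authors' table of normalized gene values (a signal on their own scale) served for an alternative. In 94.34% of the transcripts the listed length was within 3 bases above the coding length, so most untranslated regions appear to be left out. Estimated counts were summed per gene through GENCODE M21 (57452 transcripts matched, the other 752 held at most 0.265% of the reads) and rounded. Genes low in reads were removed with filterByExpr, which left 12716. edgeR 4.0.16 (TMM, quasi-likelihood test, Benjamini-Hochberg adjustment over all genes tested, threshold 0.05) compared the groups, which were taken from the titles. Alternatives used DESeq2 1.42.0 and limma 3.58.1 (R 4.3.3). Scores were log2 CPM with a prior count of 2, and permutation tests of relations drew 100000 resamples (Python 3.11.15). The fits were tested on simulated data. Pairs of libraries of a genotype differed by 22.1 to 96.4 in chi-square per degree of freedom, so none was a repeat deposit. The common biological coefficient of variation was 24.1%.

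Values are given for Abcg2, Abca1 and Abcg1, the 6 members highest in TPM, the 6 with the smallest p in each direction and the 2 leading genes of each pathway list where these are named. Members and lists were chosen with earlier results of these data known. Sequences are from RefSeq, and 26 of the 35 kept members had an upstream window. A few genes of the family and of the lists are counted but not reported here by name.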

Additional observations from a re-analysis of the deposited data

Results flagged for a closer look

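In each genotype the highest or lowest library was set against the others for 102 sets of values, and 6 stood far from the rest, where chance gives about 1 in 20, or 5.1. Abcd2 was at 6.46 CPM in Knockout library 1, while the other Knockout libraries lay between 3.13 and 3.79. Abcb4, which had too few reads to be kept, was at 2.42 CPM in Knockout library 1, beside 0.0569 to 0.409 in the others. Abca7 was at 26.5 CPM in Knockout library 5, beside 19.8 to 22.0 in the others. Abcg3 was at 1.47 CPM in Wild-Type library 5, beside 0.70 to 0.729 in the others. Of the marker scores, that of B cells was 1.52 in Knockout library 1, where the other Knockout libraries lay between -2.50 and -1.36, and that of Schwann cells was -0.705 in Knockout library 5, beside -0.229 to -0.00131. Without Knockout library 1 the log2 difference of Abcd2 was 0.41, beside 0.58 with it.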

How the results depend on the processing

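The count of ABC genes past the threshold was 0 in all fits run except DESeq2, where it was 1, and 0 in every fit that left out a library (0 to 0). Counts over all genes moved from 7 to 146 with DESeq2, 11 with a library size without milk proteins, 4 with limma on TPM, 0 with the replicate block and 0 to 28 without a library in turn. They were 0 without Knockout library 3 or 6, 2 without Knockout library 1 or Wild-Type library 3, 28 without Knockout library 2, 13 without Wild-Type library 1 or 5 and 14 without Wild-Type library 4. The cause was not tested. The labels do not say whether the replicate numbers pair the libraries. Deviations from the group means of same-numbered libraries correlated at -0.223 to 0.187, which cannot exclude a pairing. The block moved the ABC genes at an unadjusted p below 0.05 from 6 to 8.

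Limma on log2(TPM + 0.1) turned Abcg2 (0.0389), Abcg1 (0.17), Abca3 (0.029), Abcf3 (0.19), Abcd4 (0.0611), Abcc10 (0.0567), Abcb6 (0.0521), Abca7 (0.0299) and Abca2 (0.066) to the higher side. On that scale the median of all genes was 0.209. On the authors' values Abcg1 was 0.0266. A library size without milk proteins turned Abcf3 (0.029) and the macrophage (0.0642) and mural cell (0.0738) scores. Without a library in turn, Abcg1 ran from -0.329 to 0.0513, Abcf1 from -0.0276 to 0.0463 and Abcd3 from -0.03 to 0.107. Scores past the threshold numbered 1, with 0 under either alternative scaling and 0 to 3 without a library in turn. The scores that turned then ran from -0.431 to 1.5 (skeletal muscle), -0.0285 to 0.103 (endothelium), -0.07 to 0.0518 (macrophage), -0.149 to 0.0789 (mural cell) and -0.219 to 0.0286 (red blood cell). The Abcg2 share of family TPM was 67.1%, and 65.5% to 67.6% under all settings. Relations past the threshold numbered 0, and 0 to 1 without a library in turn. The TPM of the longest transcript and, for shares and relations, the leaving out of libraries were chosen after seeing the data.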
